A study of Mus musculus with 7 samples.

Results

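The hippocampus was compared with the cortex within the same mice of a familial Alzheimer's disease model (FAD). These were the 28 wells of 14 FAD mice, out of 47 wells of 24 mice in the whole series, chosen because the well name of each mouse and its entry on the sample sheet gave the same treatment. Both tissues were taken from every one of the 14 mice, 7 of which had received IgG and 7 of which belonged to the CD38 arm, in which, by the title of the series, the enzyme CD38 was targeted. The labels name neither the transgenes of the FAD mice nor their age or sex, and 1 further FAD mouse was left out because its well name and its sheet entry disagreed on the treatment. The comparison group was 8 wild-type (WT) mice with both regions, which had received PBS, so that genotype and injection differ together between FAD and WT. RNA was profiled by mcSCRB-seq, a bulk method that barcodes each well and reads transcripts near their 3′ end, in 7 library pools.

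The hippocampus and the neocortex hold the same broad classes of cells in different forms. Hippocampal granule cells of the dentate gyrus and pyramidal cells of the CA fields form single dense layers, and the cortex stacks excitatory neurons of different molecular identity in its upper and deep layers. Both regions collect amyloid plaques in such models, around which microglia and astrocytes change their expression. A block of either tissue also carries cells of its neighbours: striatum and meninges lie against the cortex, and ependyma and choroid plexus of the ventricle lie against the hippocampus.

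The FAD libraries held 1428454 to 4115439 counts in hippocampus (median 2833924.5) and 1270918 to 5101368 in cortex (median 3067595.5). Total counts were higher in the hippocampus of 6 of 14 mice (two-sided exact permutation test over pairs, p = 0.262, 0.393 after Benjamini-Hochberg adjustment over 3 measures). Ribosomal RNA genes took a median of 5.47% of counts in hippocampus and 5.07% in cortex (higher in hippocampus in 12 of 14 mice, exact p = 0.421, adjusted 0.421). Mitochondrial genes other than its ribosomal RNAs took a median of 5.04% in hippocampus and 5.88% in cortex, higher in hippocampus in 1 of 14 mice (exact p = 0.000488, adjusted 0.00147). The hippocampal library of mouse 2632, of the CD38 arm, stood apart, with 1428454 counts, 17.2% of them from ribosomal RNA genes and 1.27% from mitochondrial genes. It was the lowest of the 14 hippocampal wells for 58 of the 159 genes followed by name and the highest for 30. The highest ribosomal RNA share of the whole series, 23.7%, was in the hippocampal well of WT mouse 2756, 1 of the 8 comparison mice.

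Regional expression in FAD mice differed across much of the measured transcriptome. Of 12328 genes tested, 4499 (36.5%) were called at an adjusted p of 0.05, 2310 (18.7%) of them higher in hippocampus and 2189 (17.8%) higher in cortex (edgeR quasi-likelihood test with the mouse as a block). Most differences were small: the median absolute log2 difference of the called genes was 0.42. Beyond 1 on the log2 scale lay 233 genes higher in hippocampus and 265 higher in cortex, and beyond 3 lay 13 and 13. Over all genes tested the median log2 difference, hippocampus minus cortex, was 0.025. Of the called genes, 470 were higher in the hippocampus of 14 of 14 mice and 575 were higher in the cortex of 14 of 14 mice. Without mouse 2632 there were 2203 and 2245 calls, and 4177 of the 4464 called genes that could be retested were still called with the same sign. Counts of list members below are read against these shares of all genes. A gene could pass the filter on low counts through 1 region alone, which favours that region for genes low in the other. In bulk tissue, fewer cells of a type and less RNA per cell cannot be told apart.

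The 12 genes of largest difference toward hippocampus included markers of both principal cell layers. The 12 in each direction were chosen by size among called genes of 1 sign in every mouse. Their shared sign follows from that rule, which also favours separate ranges. The share of all genes with separate ranges is not given. C1ql2, a secreted C1q-like protein of dentate granule cells, ranged from 22.3 to 110 CPM (counts scaled to the TMM-adjusted total of the library) in hippocampus, with a median of 73.7. In cortex it ranged from 0.397 to 5.32 CPM, with a median of 1.94, and the lowest hippocampal well lay above the highest cortical one. The fitted log2 difference of C1ql2 was 5.01 (SE 0.18, adjusted p = 2.93e-16). Spink8, a serine protease inhibitor of CA1 pyramidal cells, had 38.6 to 86.2 CPM in hippocampus (median 66.8) and 1.28 to 7.83 CPM in cortex (median 3.13). Its log2 difference was 4.36 (SE 0.15, adjusted p = 2.01e-19). Lhx9, a LIM homeobox transcription factor, had the largest log2 difference, 5.55 (SE 0.27), from 6.15 to 15.03 CPM in hippocampus and a cortical median of 0.142 CPM that rests on 8 counts in all 14 cortical wells.

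Of the 20 dentate gyrus markers listed, 17 passed the filter on low counts: 11 were called toward hippocampus, 2 toward cortex and 4 not at all. Their median log2 difference was 1.10. Besides C1ql2, Prox1, the homeodomain factor that specifies granule cells, had 14.9 to 73.1 CPM in hippocampus and 3.56 to 11.5 CPM in cortex (log2 difference 2.33, SE 0.14). Sema5a, a semaphorin, differed by 1.93 and Tnfaip8l3 by 2.173. Calb1 (log2 difference -0.32) and Pdzd2 (-0.25), the 2 listed genes higher in cortex, were singled out after their values were seen. The mean log2 CPM difference over the tested members lay between 0.72 and 1.82 in the 14 mice, with mouse 2632 lowest.

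CA pyramidal markers were called toward hippocampus for 15 of 19 tested and toward cortex for 0, with a median log2 difference of 1.25. Fibcd1, a transmembrane receptor of CA1 neurons, had 27.7 to 48.9 CPM in hippocampus and 0 to 4.37 CPM in cortex (log2 difference 4.07, SE 0.14). Cabp7, a neuronal calcium-binding protein, had 43.9 to 91.7 CPM against 2.64 to 8.22 CPM (3.58, SE 0.12, adjusted p = 1.41e-20). Lefty1, an inhibitor of Nodal signalling, was higher in the hippocampus of 14 of 14 mice (3.09, SE 0.21), but its ranges of 3.85 to 39.8 CPM in hippocampus and 0.889 to 6.57 CPM in cortex overlapped. The CA list shifted by 0.94 in mouse 2632, the lowest, and by up to 1.80 in the other mice.

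Receptors and signalling genes filled much of the rest of the hippocampal top 12. Npy2r, the Y2 receptor for neuropeptide Y, had 6.92 to 29.7 CPM in hippocampus and 0 to 2.78 CPM in cortex (log2 difference 3.93, SE 0.16). Shisa6, an auxiliary subunit of AMPA receptors, differed by 3.43 (SE 0.14), and the growth factor Tgfb2 by 2.66 (SE 0.11), with 45.9 to 84.2 CPM in hippocampus and 7.38 to 16.5 CPM in cortex. Pcdh20, a protocadherin, differed by 3.23 and the tetraspanin Tspan18 by 3.18. The lowest hippocampal well of each of these 5 genes lay above its highest cortical well.

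**Figure D1:**
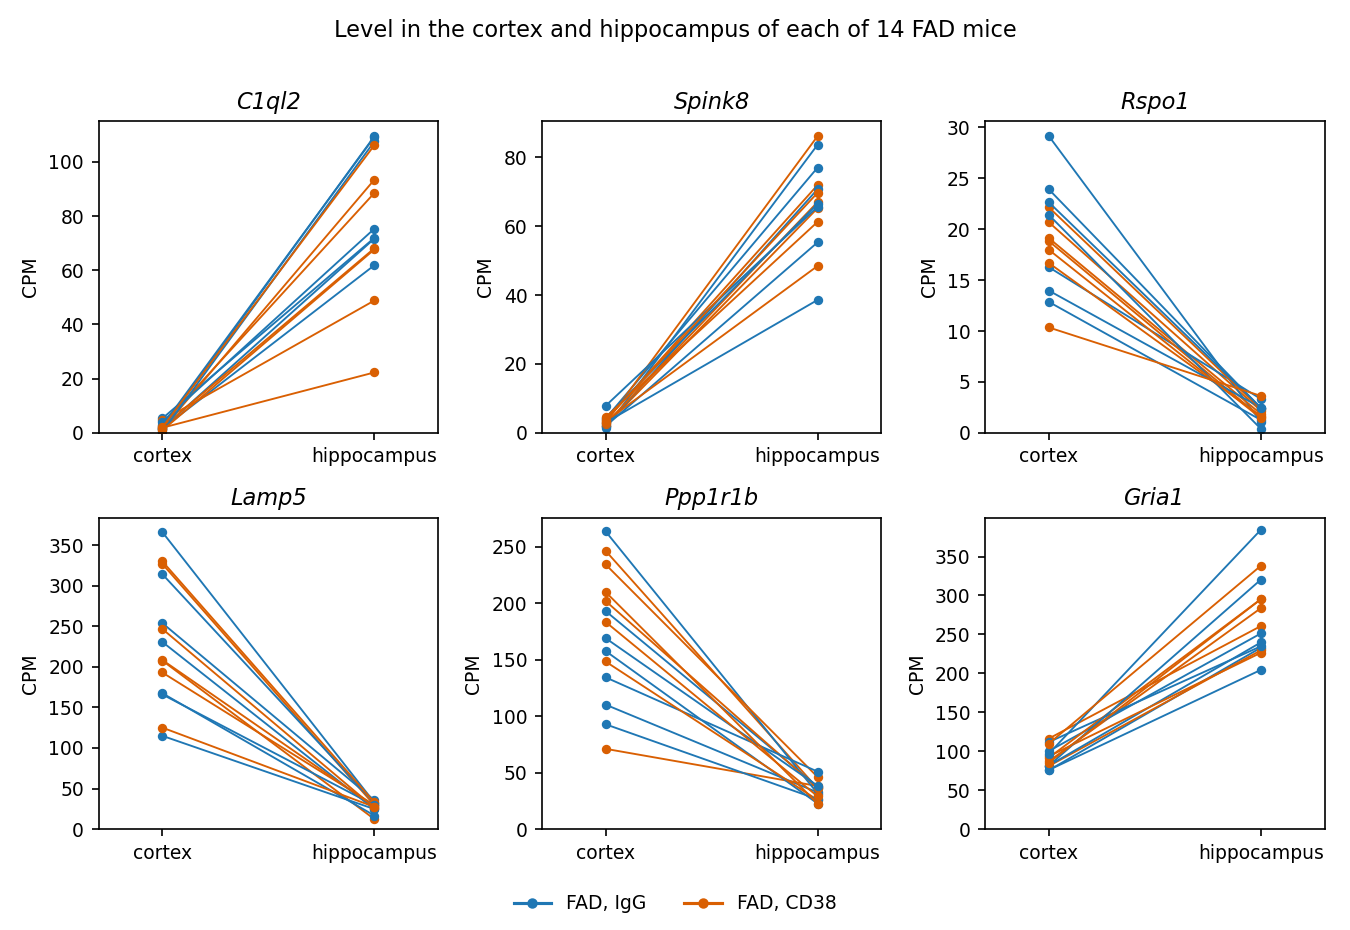
Level in CPM (vertical axis, linear, from 0) of 6 genes in the cortex and hippocampus of each of 14 FAD mice, with 1 line for each mouse, blue for the IgG and orange for the CD38 arm. C1ql2, Spink8 and Gria1 rise from cortex to hippocampus in 14 of 14 mice, Rspo1, Lamp5 and Ppp1r1b fall in 14 of 14, and Ppp1r1b spreads from 71.2 to 264 CPM among cortices. C1ql2, Spink8, Rspo1 and Lamp5 were chosen for 1 sign in every mouse.

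Cortical identity was carried by genes of both layer groups. Rspo1, a secreted enhancer of Wnt signalling, had 10.3 to 29.1 CPM in cortex (median 19.0) and 0.396 to 3.63 CPM in hippocampus (median 2.02). The ranges were separate, and its log2 difference was -3.21 (SE 0.17, adjusted p = 2.93e-16). Upper-layer genes were called toward cortex for 12 of 13 tested and toward hippocampus for 1, with a median of -1.13. Lamp5, a membrane protein of upper-layer neurons and some interneurons, had 115 to 366 CPM in cortex and 12.3 to 35.6 CPM in hippocampus (-3.04, SE 0.10). Dkkl1 differed by -3.79 (SE 0.14) and Cux2, a homeobox factor of upper layers, by -1.97 (SE 0.10). The exception was Mdga1 (2.16), named after its value was seen.

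Deep-layer genes split. Cortex had the higher level of 10 of 18 tested and hippocampus that of 5, with 3 not called (median -0.53). Foxp2, a transcription factor of layer 6, had 5.74 to 19.4 CPM in cortex and 0 to 2.175 CPM in hippocampus (log2 difference -3.38, SE 0.20). Myl4, a myosin light chain found in deep-layer neurons, had 27.4 to 82.5 CPM against 1.54 to 9.02 CPM (-3.24, SE 0.13). Deptor, an inhibitor of mTOR, differed by -1.33 and Ighm, the immunoglobulin heavy constant mu gene, by -1.12. The 5 listed genes higher in hippocampus, named after their values were seen, were Bcl11b (1.11), Tshz2 (0.87), Hs3st4 (0.79), Tle4 (0.35) and Etv1 (0.21).

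Trbc2, the constant region of the T cell receptor beta chain, had the largest difference toward cortex. It had 36.1 to 66.5 CPM in the 14 cortices and 0.334 to 4.12 CPM in the 14 hippocampi (log2 difference -4.39, SE 0.15, adjusted p = 5.08e-20). Counts of other T cell genes were low in both regions. Cd3e had 13 counts in all cortical and 13 in all hippocampal wells, Cd3d had 23 and 48, Trac, of the alpha chain, had 75 and 54, and Trbc1 had 30 and 16, against 2293 and 94 for Trbc2. Only Ccl5 of 14 lymphocyte genes passed the filter on low counts, and it was higher in hippocampus (0.57, SE 0.15, adjusted p = 0.00291). Rasgef1c (-3.50), Coch (-3.02), Atp6ap1l (-2.96), Tnnc1 (-2.95) and Gm11549 (-3.36) were also in the cortical top 12, each with separate ranges.

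To show the sequence at genes of largest difference, the 300 bases around the start site (250 before, 50 after) were read for C1ql2 and Npy2r of the hippocampal group and Rspo1 and Lamp5 of the cortical group. The sequences are RefSeq's, on GRCm38.p6, written 5′ to 3′ on the strand of the gene. They lie at chr1:120340332-120340631 (C1ql2, plus strand), chr3:82548036-82548335 (Npy2r, minus), chr4:124986180-124986479 (Rspo1, plus) and chr2:136057498-136057797 (Lamp5, plus, the second of 2 listed starts). Capitals mark the motifs searched on both strands, the E-boxes CAGATG and CAGCTG and the homeodomain motif TAATTA. The window of the first listed Lamp5 start held none of these motifs and is not shown.
C1ql2: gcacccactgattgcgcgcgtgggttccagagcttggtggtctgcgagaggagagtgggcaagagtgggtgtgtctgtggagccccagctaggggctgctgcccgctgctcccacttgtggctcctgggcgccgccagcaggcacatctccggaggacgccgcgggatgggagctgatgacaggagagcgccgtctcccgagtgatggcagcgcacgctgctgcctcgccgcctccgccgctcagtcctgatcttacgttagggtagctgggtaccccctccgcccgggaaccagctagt
Npy2r: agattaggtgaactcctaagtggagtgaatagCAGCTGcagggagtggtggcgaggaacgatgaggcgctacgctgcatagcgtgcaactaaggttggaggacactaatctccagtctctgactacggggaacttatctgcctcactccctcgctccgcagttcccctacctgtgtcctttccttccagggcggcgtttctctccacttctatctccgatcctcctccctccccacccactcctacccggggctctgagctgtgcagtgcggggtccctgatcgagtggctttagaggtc
Rspo1: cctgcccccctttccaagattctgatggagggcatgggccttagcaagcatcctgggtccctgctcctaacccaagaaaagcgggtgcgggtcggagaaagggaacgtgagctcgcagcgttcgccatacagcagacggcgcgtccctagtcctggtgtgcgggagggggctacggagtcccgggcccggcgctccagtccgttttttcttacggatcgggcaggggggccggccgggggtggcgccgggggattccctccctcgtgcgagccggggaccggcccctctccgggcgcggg
Lamp5: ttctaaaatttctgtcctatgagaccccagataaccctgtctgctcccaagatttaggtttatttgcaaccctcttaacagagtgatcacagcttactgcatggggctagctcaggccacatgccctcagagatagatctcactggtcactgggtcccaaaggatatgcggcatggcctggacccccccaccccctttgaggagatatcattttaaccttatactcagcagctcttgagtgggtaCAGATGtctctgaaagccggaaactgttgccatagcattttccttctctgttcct
Of the 12 genes in each group, 7 had an entry. A gene was counted where any of its listed windows held the motif. CAGATG lay in 0 of 7 hippocampal and 3 of 7 cortical genes (Dkkl1, Lamp5, Tnnc1), against 13.6% of the 9167 tested genes with an entry and 17.2% of all 32851 windows. CAGCTG lay in 1 of 7 hippocampal (Npy2r) and 0 of 7 cortical genes, against 18.0% of tested genes and 16.3% of windows, and TAATTA in none of the 14, against 3.29% and 5.29%. These counts describe letters in short windows only.

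Genes of neighbouring tissue differed as strongly as some neuronal markers. All 10 striatal genes tested of 18 listed were higher in cortex, with a median log2 difference of -1.71. Striatal genes low in hippocampus could pass the filter through the cortical wells alone, which favours this direction. Ppp1r1b, which encodes the dopamine-regulated phosphatase inhibitor DARPP-32, had 71.2 to 264 CPM in cortex and 22.6 to 50.9 CPM in hippocampus (-2.29, SE 0.16), with separate ranges. Scn4b, a sodium channel beta subunit, had 14.8 to 33.3 CPM against 0.481 to 5.56 CPM (-2.66, SE 0.15). The summed level of the striatal list ran from 225 to 765 CPM among FAD cortices and from 66.8 to 191 CPM among FAD hippocampi. In the 8 WT cortices it ran from 638 to 957 CPM, so that 12 of the 14 FAD cortices fell below the lowest WT cortex. The part of this spread in the other cortical values was not tested.

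Ependymal genes, which build motile cilia of the ventricular lining, were higher in hippocampus for 8 of 8 tested, with a median of 1.12. Those low in cortex could likewise pass the filter through hippocampus alone. Fam183b (1.66, SE 0.14), Tmem212 (1.80), Ccdc153 (1.87) and Cfap126 (1.22) led the list, and the list's mean difference was above 0 in 14 of 14 mice. Ttr, transthyretin of the choroid plexus, did not pass the test (log2 difference 1.90, SE 1.19, adjusted p = 0.236, and 0.0323 by DESeq2). It stood at 16990 CPM in the hippocampus of mouse 2632 and 9184 CPM in that of mouse 2770, and at 5.77 to 66.8 CPM in the other 12 hippocampi. Among cortices it stood at 1747 CPM in mouse 2792 and at 2.12 to 130 CPM in the other 13.

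Meningeal fibroblast genes leaned to cortex, with 7 of 10 tested called there and 1 in hippocampus (median -0.67). Fmod, a small proteoglycan, differed by -1.57, the retinoic acid synthesis enzyme Aldh1a2 by -1.48 and Mgp by -0.95. The exception was the proteoglycan gene Dcn, with 23.4 to 90.6 CPM in hippocampus and 9.86 to 21.4 CPM in cortex (1.80, SE 0.11). Thalamic markers showed no common direction, with 3 of 10 called each way. Of the 13 endothelial and mural genes tested, 3 were higher in cortex (Vtn, Ly6a and Ly6c1, -0.36 to -0.54) and 0 in hippocampus.

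Neurotransmitter receptors differed from subunit to subunit. Of 21 glutamate receptor genes, 9 were called toward hippocampus and 6 toward cortex. Gria1, a core AMPA receptor subunit, had 204 to 384 CPM in hippocampus (median 256) and 75.6 to 116 CPM in cortex (median 89.4), with separate ranges and a log2 difference of 1.56 (SE 0.07, adjusted p = 2.13e-17). Grik4, a kainate receptor subunit of CA3, differed by 1.25, the NMDA receptor subunit Grin2a by 0.89 and the metabotropic receptor Grm5 by 0.80.

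Of 14 GABA receptor genes, 5 were higher in each region. Gabra5, the alpha subunit of extrasynaptic receptors in CA1, had 87.7 to 189 CPM in hippocampus and 18.9 to 46.9 CPM in cortex (log2 difference 1.85, SE 0.07). Gabrd, the delta subunit of other extrasynaptic receptors, went the opposite way, with 1.54 to 22.6 CPM in hippocampus and 37.7 to 66.2 CPM in cortex (-1.92, SE 0.11). Gabra2 (0.996) and Gabrb1 (0.62) were higher in hippocampus.

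Receptors for monoamines, acetylcholine, cannabinoids and steroids were called toward hippocampus for 7 and toward cortex for 6 of 20. Drd5, the D5 dopamine receptor, differed by 3.18 (SE 0.22), with 4.97 to 12.4 CPM in hippocampus and 0 to 1.88 CPM in cortex. Nr3c2, the mineralocorticoid receptor, had 18.3 to 43.9 CPM against 2.78 to 11.5 CPM (2.05, SE 0.15). Htr5b differed by 2.67 and Cnr1, the cannabinoid receptor of presynaptic terminals, by 1.05.

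Potassium and HCN channel genes leaned to cortex, with 21 of 43 higher there and 15 higher in hippocampus (median -0.18). Kcng2, a modifying subunit, had the strongest hippocampal difference of the 4 named members (2.01, SE 0.09), with 35.4 to 84.95 CPM against 10.7 to 19.0 CPM. Kcnv1 (-1.42), Kcnh5 (-2.39) and Kcnh3 (-0.92) were higher in cortex.

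Axon guidance genes leaned to hippocampus. They were called toward hippocampus for 25 and toward cortex for 9 of 47, with a median of 0.38 beside 0.025 over all genes. Nrp1 and Nrp2, co-receptors for semaphorins, differed by 1.63 (SE 0.08) and 1.80 (SE 0.10), and the ephrin receptor Epha7 by 1.47 (SE 0.07), each with separate ranges.

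Interneuron genes split evenly, with 6 of 24 higher in each region. Vip had 25.2 to 49.0 CPM in cortex and 7.69 to 15.5 CPM in hippocampus (log2 difference -1.59, SE 0.09), and the stress peptide gene Crh differed by -2.14. Nos1, the neuronal nitric oxide synthase, and Kit differed by 1.78 and 1.79 toward hippocampus. Sst, Gad1 and Gad2, looked up after their values were seen, had differences of -0.05, -0.13 and 0.17 and were not called.

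Among 8 neurogenesis genes tested, 6 were called toward hippocampus and 2 toward cortex (Dcx -0.83 and Nes -0.78, named after their values were seen). Prox1 (above), Calb2 (1.51, SE 0.21), Hopx (1.17, SE 0.08) and Sox11 (0.96, SE 0.17) were higher in hippocampus. Sox11 reached 146 CPM in 1 hippocampus against a median of 30.4 CPM.

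Immediate early genes, induced by neuronal activity, were higher in cortex for 14 of 25 and higher in hippocampus for 7 of 25 (median -0.38). Egr1 had 76.1 to 231 CPM in cortex and 19.3 to 64.4 CPM in hippocampus (log2 difference -1.68, SE 0.10), with separate ranges. Dusp1, a phosphatase of activated MAP kinases, differed by -1.37. Jun went the other way, with 44.9 to 210 CPM in hippocampus and 12.8 to 42.9 CPM in cortex (1.72, SE 0.09), and so did Nr4a3 (1.37). The summed level of the list was 2450 CPM in the hippocampus and 2169 CPM in the cortex of mouse 2632, with medians of 721 and 943 CPM over all 14 mice.

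**Figure D2:**
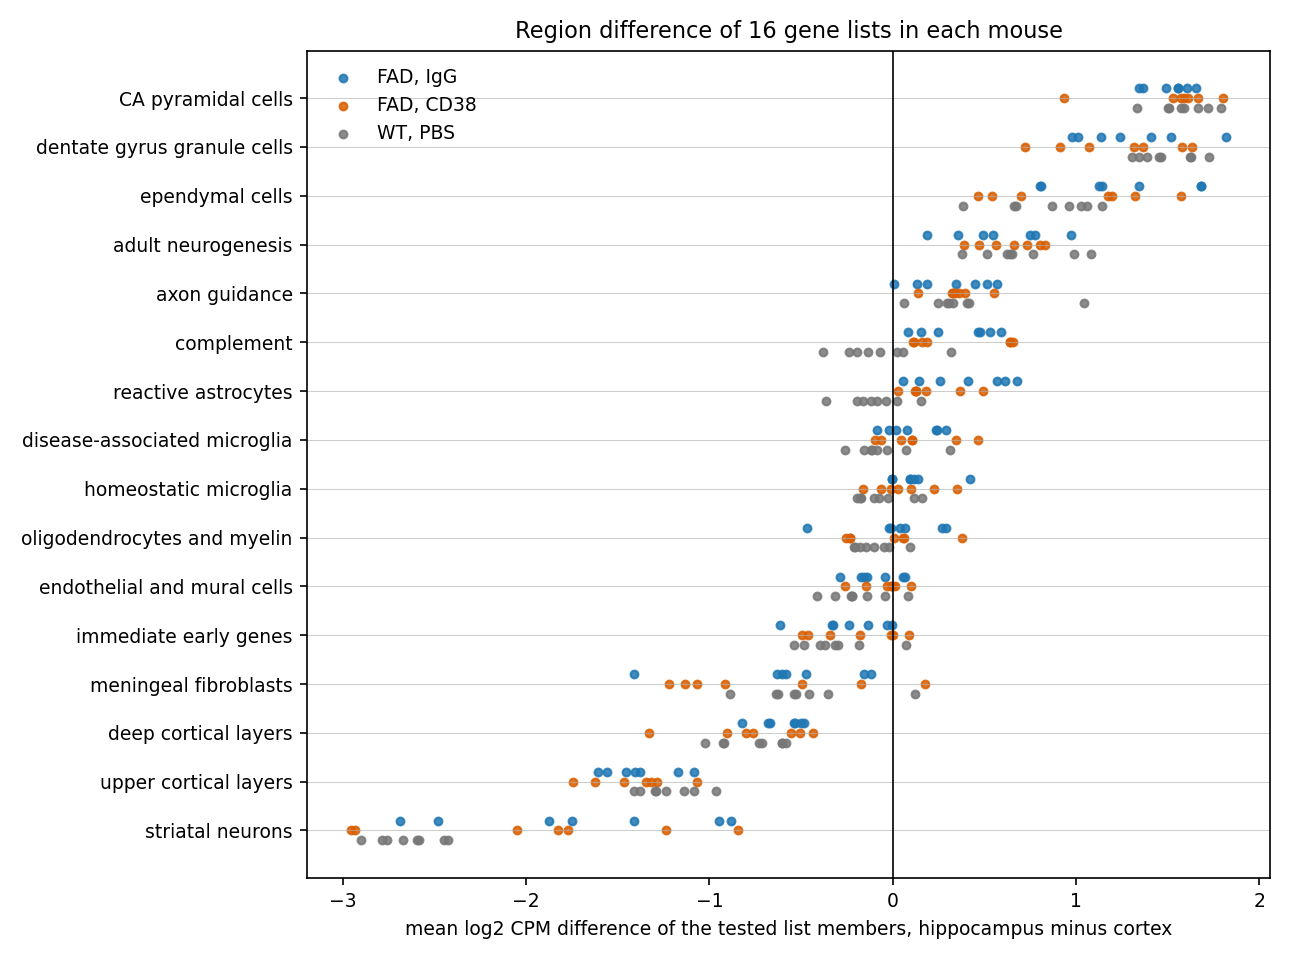
Mean log2 CPM difference, hippocampus minus cortex, over the tested members of 16 gene lists (horizontal axis), with 1 point for each mouse, blue for FAD IgG, orange for FAD CD38 and grey for WT. The dentate and CA lists lie above 0 and the upper-layer and striatal lists below 0 in 14 of 14 FAD mice, and the complement and reactive astrocyte lists lie above 0 in 14 of 14 FAD mice and in 3 and 2 of 8 WT mice.

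Reactive astrocyte genes were mostly higher in hippocampus, with 9 of 17 tested higher there and 1 higher in cortex (median 0.43). Gfap, the intermediate filament of astrocytes, had 222 to 600 CPM in hippocampus (median 428) and 181 to 426 CPM in cortex (median 227). The ranges overlapped, but Gfap was higher in the hippocampus of 14 of 14 mice (log2 difference 0.73, SE 0.08, adjusted p = 1.62e-08). Cd44, a hyaluronan receptor, differed by 0.86, the oncostatin M receptor Osmr by 0.82 and Vim by 0.51. Homeostatic astrocyte genes split 6 to 6 of 22: Aqp4, the water channel of astrocyte endfeet, differed by 0.70 and Sox9 by 0.36, while the glycolytic enzyme Aldoc (-0.44) and Mfge8 (-0.47) were higher in cortex.

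Of 33 genes of plaque-associated microglia, 9 were called toward hippocampus, 3 toward cortex and 21 not at all, with a median of 0.13. Over all genes tested, 18.7% were called toward hippocampus and 17.8% toward cortex. Lpl, lipoprotein lipase, had 30.8 to 93.1 CPM in hippocampus and 24.0 to 63.3 CPM in cortex (log2 difference 0.74, SE 0.08), higher in hippocampus in 14 of 14 mice. Its difference was larger in WT mice (1.36, against 0.73 in FAD mice, in 1 fit of both genotypes). Ctsd differed by 0.81, Lgals3 by 0.48 and Cd52 by 0.39. Trem2, the lipid receptor of microglia, had medians of 229 CPM in hippocampus and 210 CPM in cortex (0.07, SE 0.07, adjusted p = 0.508), and Cst7, cystatin F, had 177 and 179 CPM (-0.06, SE 0.07, adjusted p = 0.508). Of 18 homeostatic genes 3 were called, all higher in hippocampus: Olfml3 (0.46), Tgfbr1 (0.40) and Csf1r (0.16, adjusted p = 0.0490, lost in 17 of 19 alternatives).

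Complement genes were called toward hippocampus for 6 of 13 and toward cortex for 0. C3, the central component, had 3.17 to 10.0 CPM in hippocampus and 0.284 to 2.46 CPM in cortex, with separate ranges (log2 difference 2.26, SE 0.21, adjusted p = 1.94e-10). C4b differed by 0.51, C4a by 0.67 and Itgam, the alpha chain of complement receptor 3, by 0.47. C4a and C4b are near-identical copies, between which the counting could split reads.

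Antigen presentation genes were called toward hippocampus in part. Of 6 MHC class II genes, 3 were higher in hippocampus and 3 were not called (median 0.39). Cd74, the invariant chain, had 7.06 to 51.8 CPM in hippocampus (median 18.5) and 4.93 to 24.9 CPM in cortex (median 12.1). Mouse 2788 was the highest in hippocampus, and within each of the 14 mice hippocampus exceeded cortex, by 0.068 to 2.34 on the log2 CPM scale (log2 difference 0.68, SE 0.14, adjusted p = 0.000221). H2-Eb1 differed by 0.61 (adjusted p = 0.0300, lost in 9 of 19 alternatives) and H2-DMa by 0.21 (adjusted p = 0.0431, lost in 12 of 19). The class II list as a whole was less uniform than Cd74: its mean log2 CPM difference ran from -0.62 to 1.25 and was above 0 in 9 of 14 mice. Of 13 class I genes 3 were higher in hippocampus, Psmb8 (0.47) and Psmb9 (0.43) of the immunoproteasome and H2-Q7 (0.70), and of 19 interferon-response genes 5 were, led by Ifi27 (0.40) and Bst2 (0.45). No member of these 2 lists was called higher in cortex. Over all genes tested, 18.7% were called toward hippocampus and 17.8% toward cortex.

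Oligodendrocyte and myelin genes were called for 4 of 25, all higher in hippocampus: Ermn (0.30), Tspan2 (0.30), Mag (0.27) and Cldn11 (0.25). Their list median was -0.041. Over all genes tested 18.7% were called toward hippocampus, and the count of 4 of 25 lies near that share. Mbp, myelin basic protein, had medians of 1983 CPM in hippocampus and 2317 CPM in cortex and was not called (-0.24, SE 0.10, adjusted p = 0.0536), but was called toward cortex in 10 of 19 alternatives. Of 13 precursor genes 4 were higher in hippocampus, led by Ptprz1 (0.45, SE 0.09). Klk6, a secreted serine protease of oligodendrocytes, had 9.63 to 39.1 CPM in hippocampus (median 17.4) and 13.3 to 36.2 CPM in cortex (median 20.1), with overlapping ranges. It was higher in the cortex of 12 of 14 mice, by a fitted log2 difference of -0.29 (SE 0.09, adjusted p = 0.0106). Klk6 was not called without the mouse block (adjusted p = 0.139 with the pool in its place and 0.291 with region alone).

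NAD metabolism genes, which include the target of the treatment, leaned to hippocampus, with 6 of 19 higher there and 1 higher in cortex (Sirt3, -0.27, named after its value was seen). Cd38, which hydrolyses NAD, had 4.84 to 10.6 CPM in hippocampus (median 6.97) and 1.49 to 6.36 CPM in cortex (median 3.93). It was higher in the hippocampus of 14 of 14 mice (log2 difference 1.01, SE 0.15, adjusted p = 2.46e-06). Parp1, which consumes NAD in DNA repair, differed by 0.55, Nampt, the rate-limiting enzyme of NAD salvage, by 0.39 and Nmrk1 by 0.52.

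Of 11 mitochondrially encoded genes tested, 3 were higher in cortex (mt-Nd1, mt-Nd6 and mt-Cytb, -0.42 to -0.43, the last lost in 7 of 19 alternatives) and 0 in hippocampus. The hippocampal well of mouse 2632 held the lowest levels of mt-Nd1 (2416 CPM) and mt-Cytb (1849 CPM), against medians of 13000 and 14400 CPM. Of 72 nuclear genes of the respiratory chain, 6 were higher in cortex, led by Atp5a1 (-0.29), Cox5a (-0.28) and Ndufa9 (-0.28), and 5 higher in hippocampus, with a median of 0.045. App, the amyloid precursor, had medians of 568.1 CPM in hippocampus and 592 CPM in cortex and was not called (-0.02, SE 0.08, adjusted p = 0.872).

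The region differences were present in each treatment arm on its own. In the 7 IgG mice 2436 of 12547 genes (19.4%) were called, 1097 (8.74%) higher in hippocampus and 1339 (10.7%) higher in cortex. In the 7 CD38 mice 2575 of 12115 genes (21.3%) were called, 1286 (10.6%) higher in hippocampus and 1289 (10.6%) higher in cortex. The arms share no mice. Of 12070 genes tested in both, 1733 were called in both, which is 73.3% of the IgG calls and 67.6% of the CD38 calls, and all 1733 had the same sign. Across these genes, which are not independent replicates, the log2 differences of the arms had a Pearson r of 0.905 and a Spearman rho of 0.803. C1ql2 differed by 5.07 in IgG and 4.91 in CD38 mice, Rspo1 by -3.36 and -3.05, Cd74 by 0.87 and 0.50, and Klk6 by -0.24 and -0.40 (adjusted p = 0.204 and 0.0547). Without pool 6, which holds 2 of the 7 IgG mice, the IgG counts were 728 and 799.

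Whether the region difference itself differed between the arms was tested in 1 fit with the mouse as a block. Of 12328 genes, 0 (0%) were called by edgeR, 0 by DESeq2 and 0 by voom, and 183 (1.48%) had an unadjusted p under 0.05. In simulated counts the same test recovered 13.4%, 70.1% and 100% of genes whose difference was changed by 1.5, 2 and 4-fold over 12225 genes. Most shifts of the smallest size were thus missed in the simulation. Its noise was set above that estimated in these data, and only genes of higher counts were changed, so recovery in these data can differ. Among the 10 genes of smallest p, Cpd, carboxypeptidase D, differed between regions by 0.00 in IgG and 0.66 in CD38 mice (difference 0.64, SE 0.20, unadjusted p = 0.00267, adjusted p = 0.9999). Car12, carbonic anhydrase 12, differed by 2.93 and 1.77 (difference -1.17, SE 0.37, unadjusted p = 0.00377), and Tmtc2 by -0.88 and 0.41 (1.28, SE 0.39, unadjusted p = 0.00284). The remaining 7 genes were E130102H24Rik, Foxj1, Gpr135, Rpl19-ps1, Pex3, Jam2 and Haus1.

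**Figure D3:**
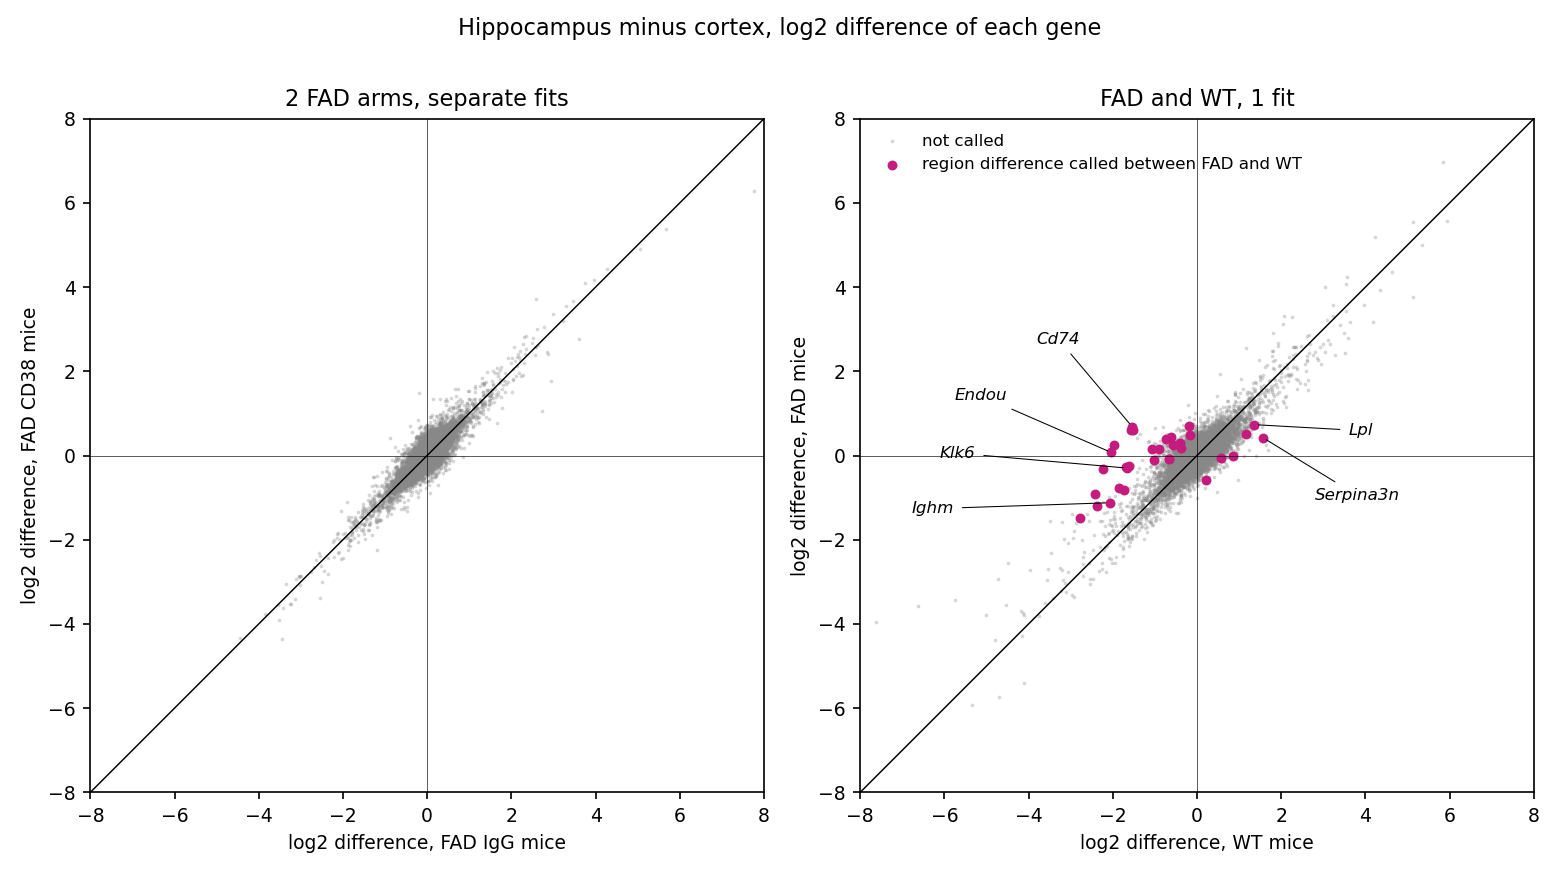
Log2 difference of each gene, hippocampus minus cortex, in FAD CD38 against FAD IgG mice (left) and in FAD against WT mice (right), where pink points are the 33 genes whose region difference was called between FAD and WT. The black diagonal is equality, and 27 of the pink points lie above it.

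In WT mice most region differences had the sign seen in FAD mice. In 1 fit of both genotypes over 13331 genes, 4783 were called in FAD and 3804 in WT mice, 2714 of them in both (56.7% of the FAD and 71.4% of the WT calls). Of these, 2701 had the same sign, and across genes the log2 differences had a Pearson r of 0.861 and a Spearman rho of 0.695. C1ql2 differed by 5.35 in WT mice and Rspo1 by -3.22, and their differences from FAD were not called (-0.35, SE 0.41, adjusted p = 0.755, and 0.01, adjusted p = 0.995).

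The region difference itself differed between FAD and WT for 33 genes (0.248%), with hippocampus minus cortex higher in FAD mice for 27 (0.203%) and higher in WT mice for 6 (0.045%). All 27 had a WT difference below 0, called as higher in cortex for 25. The 27 were chosen for a FAD value above the WT value of the same fit, which favours WT differences below 0. Over all 13331 genes, 1801 were called higher in cortex in WT mice. In FAD mice 9 of the 27 were called toward hippocampus, 8 toward cortex and 10 not at all. Genotype and injection cannot be told apart in these values. Both counts depend on the processing, and their ratio with them. By voom they were 242 and 233. Leaving out the mice of high ribosomal RNA, WT mouse 2756 among them, gave 66 and 31. Counts also moved with single pools: with pools 5, 6, 8 or 9 left out the 27 became 15, 53, 16 or 15, and with pools 5, 6, 8, 10 or 11 left out the 6 became 2, 15, 3, 13 or 3.

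Cd74 had 0 to 2.84 CPM in the 8 WT hippocampi (median 0.897) and 2.23 to 4.13 CPM in the 8 WT cortices (median 2.76), below the levels given above for FAD mice in both regions. It was higher in cortex in 7 of 8 WT mice (log2 difference -1.54, SE 0.39) and higher in hippocampus in 14 of 14 FAD mice, and the difference between genotypes was 2.22 (SE 0.41, adjusted p = 0.00342). Its class II partner H2-Eb1 differed by -1.57 in WT and 0.60 in FAD mice (difference 2.171, SE 0.44, adjusted p = 0.0184). WT mice had 4 of the 6 class II genes called toward cortex and 0 toward hippocampus, against 0 and 3 in FAD mice. In WT mice H2-Eb1 had medians of 1.41 CPM in hippocampus and 4.56 CPM in cortex. WT values at such levels rest on few counts, and such genes could pass the filter on low counts through the FAD wells alone.

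Klk6 had 1.04 to 3.18 CPM in WT hippocampi and 3.63 to 8.72 CPM in WT cortices. It was higher in the cortex of 8 of 8 WT mice (-1.66, SE 0.22), and its difference between genotypes was 1.36 (SE 0.24, adjusted p = 0.00181). Endou, an RNA-cleaving enzyme, had 7.61 to 21.01 CPM in FAD hippocampi and 7.66 to 15.6 CPM in FAD cortices, with overlapping ranges and no call (0.08, SE 0.10, adjusted p = 0.586). In WT mice it had 1.14 to 2.73 CPM in hippocampus and 3.95 to 12.3 CPM in cortex (-2.04, SE 0.20), so that its difference between genotypes, 2.11 (SE 0.23, adjusted p = 2.91e-07), had the smallest p of all genes.

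Several others of these genes are known from microglia, macrophages or reactive glia. S100a6, a calcium-binding protein, had a WT difference of -1.08 and a FAD difference of 0.16 (difference 1.24, SE 0.15). Spp1, osteopontin, had -0.91 and 0.15 (1.06, SE 0.18), and Cd52 had -0.73 and 0.39 (1.11, SE 0.19). Lgals1, galectin-1, had medians of 222 CPM in hippocampus and 136 CPM in cortex of FAD mice and 108 and 117 CPM in WT mice (0.88, SE 0.13, adjusted p = 0.00011). H2-T23, a class I gene, had -1.01 in WT and -0.10 in FAD mice (0.91, SE 0.15).

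Other genes were higher in cortex in both genotypes, less so in FAD mice. Ighm differed by -2.08 in WT and -1.12 in FAD mice (difference 0.95, SE 0.15), with WT medians of 22.4 CPM in hippocampus and 81.2 CPM in cortex. The haemoglobin gene Hba-a2, marker of red blood cells and a near-identical copy of Hba-a1, differed by -1.85 and -0.78 (1.08, SE 0.18), and Abhd11os by -2.41 and -0.92 (1.49, SE 0.26). The striatal gene Syndig1l, chosen after its values were seen, was among the 27 too (-2.78 in WT, -1.48 in FAD, difference 1.298, SE 0.28), and the lower striatal sum of FAD cortices is given above. Its part in these differences was not tested.

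Serpina3n, a secreted protease inhibitor of reactive astrocytes, led the 6 genes that went the other way. It had 12.3 to 23.8 CPM in WT hippocampi and 3.08 to 12.03 CPM in WT cortices (log2 difference 1.56, SE 0.17) and 64.5 to 164 CPM against 36.9 to 128 CPM in FAD mice (0.42), a difference of -1.14 (SE 0.19, adjusted p = 0.00108). Lpl differed by 1.36 in WT and 0.73 in FAD mice (-0.63, SE 0.14, adjusted p = 0.0264), Ccdc6 by 1.17 and 0.52 (-0.65), and Gm5124, a processed pseudogene, by 0.86 and -0.01 (-0.87). Crhbp, which binds the peptide CRH, differed by 0.56 and -0.07 (-0.63), and Rbm24 by 0.20 and -0.57 (-0.77). Gfap differed by 1.28 in WT and 0.73 in FAD mice, a difference that was not called (-0.55, SE 0.15, adjusted p = 0.111).

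**Figure D4:**
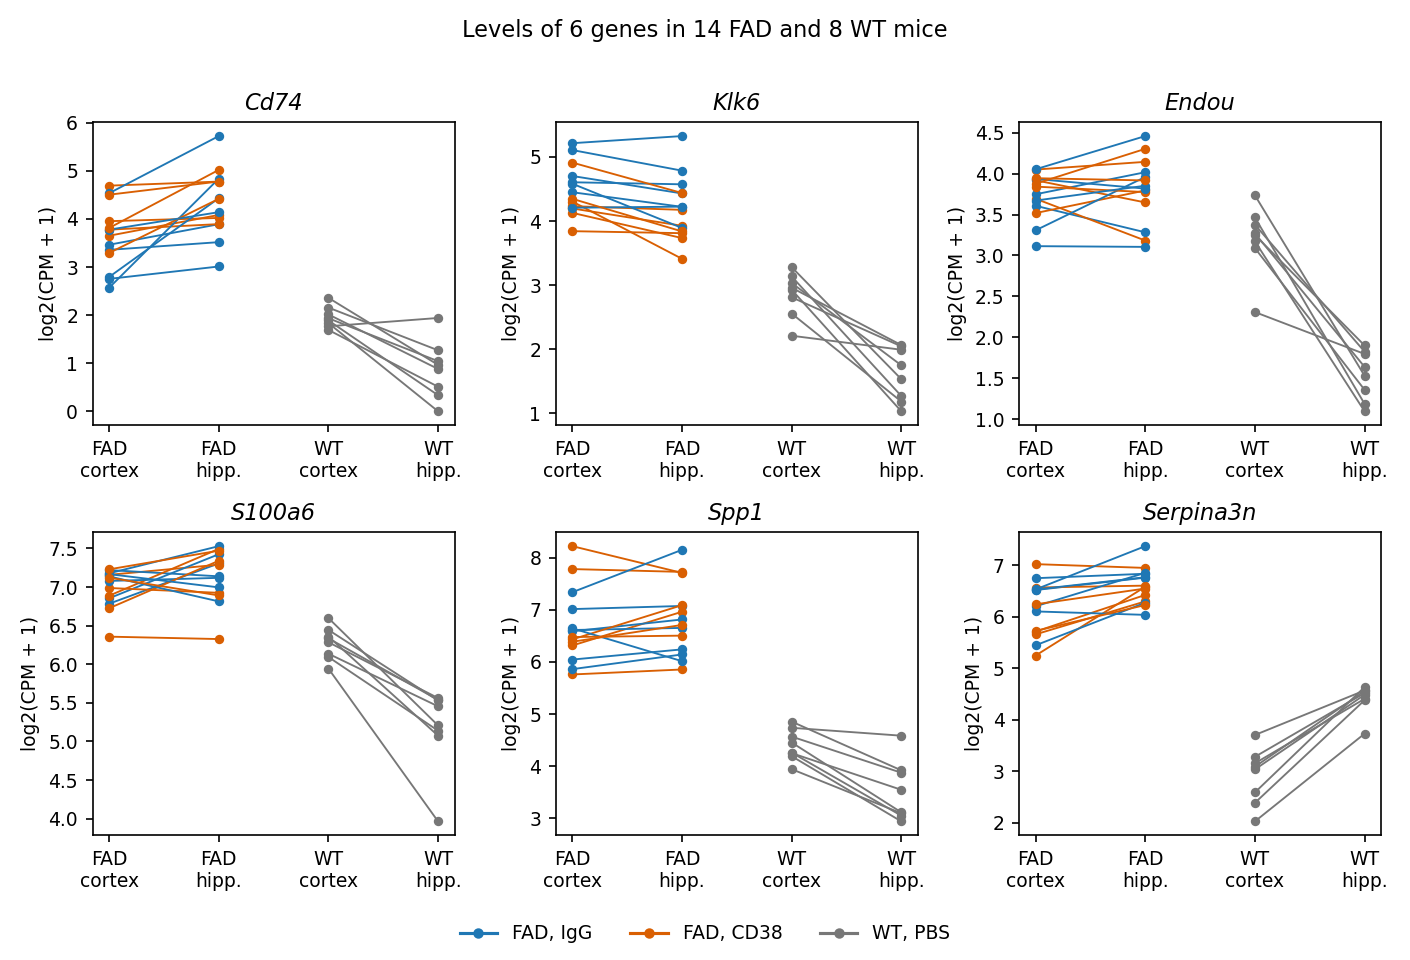
Level of 6 genes as log2(CPM + 1), vertical axis, in cortex and hippocampus of 14 FAD mice (blue, IgG; orange, CD38) and 8 WT mice (grey), with 1 line for each mouse. Klk6, Endou, S100a6 and Spp1 fall from cortex to hippocampus in 8 of 8 WT mice, Cd74 in 7 of 8, and Serpina3n rises in 8 of 8.

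Among the genes called in both genotypes, 13 had opposite signs, listed here in full, all of them higher in hippocampus in FAD and higher in cortex in WT mice. They were 3110082J24Rik, Aif1, C1qb, Cd52, Cd74, Cybb, Gsn, H2-Eb1, Mtm1, P4ha3, Selenon, Srgn and Timp1, and for 7 of them the difference between genotypes was itself called. Some WT signs rest on few counts: WT medians in hippocampus and cortex were 0.52 and 1.21 CPM for Timp1 and 0.34 and 0.93 CPM for Cybb. Of 2 looked up after their values were seen, C1qb, a chain of the first complement component, had medians of 562 CPM in hippocampus and 495 CPM in cortex of FAD mice and 120 and 140 CPM in WT mice (difference 0.53, not called, adjusted p = 0.0593). Aif1, which encodes IBA1 of microglia, had 66.1 and 53.9 CPM in FAD and 24.7 and 34.0 CPM in WT mice (0.81, adjusted p = 0.0174).

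Of the lists, 4 glial and immune ones are given here by genotype as examples whose medians in the joint fit had opposite signs, beside an all-gene median difference of -0.019 between genotypes. Those of homeostatic astrocytes (-0.047 in FAD and -0.25 in WT mice), of oligodendrocytes and myelin (-0.045 and -0.115) and of oligodendrocyte precursors (0.288 and 0.238) had the same sign. Opposite signs were not confined to glial and immune lists: the 72 nuclear respiratory chain genes had 0.041 in FAD and -0.173 in WT mice. Signs also differed for homeostatic microglia (0.111 and -0.128), MHC class I (0.093 and -0.171) and disease-induced oligodendrocyte genes (0.073 and -0.211). Plaque-associated microglia genes were called higher in hippocampus for 9 and higher in cortex for 3 of 33 in FAD mice (median 0.12 in the joint fit), and for 3 and 8 in WT mice (-0.22). Interferon-response genes counted 5 and 0 of 21 in FAD (0.23) and 1 and 3 in WT mice (-0.27). Complement genes counted 6 and 1 of 15 in FAD (0.17) and 2 and 4 in WT mice (-0.28), and reactive astrocyte genes 11 and 1 of 19 in FAD (0.43) and 4 and 5 in WT mice (-0.12). When the difference between genotypes itself was tested, 33 of 13331 genes (0.248%) were called. In these 4 lists, 0 of 21 interferon-response genes and 0 of 15 complement genes were called. Of the plaque-associated microglia genes 3 of 33 were called (2 higher in FAD mice, 1 higher in WT mice). Of the reactive astrocyte genes 5 of 19 were called (4 higher in FAD mice, 1 higher in WT mice). The MHC class II list, treated above, had 2 of 6 called, both higher in FAD mice. Among neuronal lists, dentate genes had medians of 1.45 in FAD and 1.67 in WT mice, CA genes 1.26 and 1.35, and striatal genes -2.14 and -3.02, while the interneuron list had -0.043 in FAD and 0.208 in WT mice. The joint fit tested 20 dentate, 20 CA and 14 striatal genes, against 17, 19 and 10 in the fit of FAD mice alone, so the FAD medians of the 2 fits cover different genes.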

How the data were processed

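The data are mcSCRB-seq counts from cortex and hippocampus. The deposited matrix gives each gene's raw count in every well as a whole number, which the values bear out, and well names stand in its header. The submitters' processing notes list bcl2fastq 2.17 and STAR 2.5.3a. Genome build, annotation, counting program and handling of molecular identifiers: not given in the sources used here. Counts were therefore not divided by length, and uncollapsed copies would enlarge them. Of 20859 genes, 20411 (97.85%) had a symbol in mouse annotation M21. Mouse, region, genotype and injection came from the well names, checked against the deposited sample sheet, and every column of values was read. The cortical well of WT mouse 2755, which had no hippocampal well, entered no comparison.

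A two-sided quasi-likelihood test of edgeR 4.0.16 (R 4.3.3, robust, TMM factors) was run on genes that passed filterByExpr (10 counts, 15 in total). The mouse was a block, since same-numbered wells come from the same animal. Calls were made at 0.05 after Benjamini-Hochberg adjustment over all genes tested. CPM values use TMM-adjusted totals, and log2 CPM a prior count of 2. SEs are the log2 difference divided by the square root of the F statistic. Between the 91 pairs of FAD wells of a region, a chi-square test of counts had a lowest ratio to its degrees of freedom of 3.76 in cortex and 3.13 in hippocampus, so no well repeats another.

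Named genes are the 12 of largest difference in each direction among called genes of 1 sign in every mouse and at least 10 CPM in the higher region, up to 4 called members of smallest p in each of 35 lists, check genes, and, for differences between arms or genotypes, the 10 of smallest p in each direction. Some of these are not reported here. The mice, the lists and these rules were chosen with earlier results of these data known. Lists are described by counts and medians. Tested on simulated counts, the test of the 14 mice recovered 79.1%, 100% and 100% of genes changed by 1.5, 2 and 4-fold over 12235 genes, and the FAD against WT fit 23.9%, 82.1% and 100% over 12439. The simulated noise was fixed above that estimated in these data, and only genes of higher counts were changed, so recovery here can differ. The biological coefficient of variation (square root of the common dispersion) of the main comparison came to 0.141. Alternatives were DESeq2 1.42.0, voom with quality weights (limma 3.58.1), RLE factors, other filters, mitochondrial and ribosomal RNA genes left out, mice with a well of over 10% ribosomal RNA left out, each pool left out, all mice in 1 fit, the mouse of conflicting labels included and the pool in place of the mouse. Region alone and mouse 2632 left out were chosen after seeing the data. Sequences are from RefSeq (GRCm38.p6).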

Additional observations from a re-analysis of the deposited data

Results flagged for a closer look

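Within an arm of 7 mice, 3 of 68 groups of log2 CPM differences (34 genes in each arm) held a mouse far from the other 6, and chance gives about 1 in 20. Mouse 2792 of the CD38 arm had a difference of -1.37 for Rspo1, the other 6 lying between -3.17 and -2.92, and of 4.85 for Shisa6, the others between 2.56 and 3.36. In the IgG arm mouse 2771 had 5.85 for Fibcd1 (others 3.14 to 3.99). All 3 keep the sign of their group.

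The region difference, hippocampus minus cortex, was tested between FAD and WT mice, and these named genes differed (edgeR quasi-likelihood test). It was higher in FAD mice for Endou by 2.11, Abhd11os by 1.49, Klk6 by 1.36, S100a6 by 1.24, Cd52 by 1.11, Hba-a2 by 1.08, Spp1 by 1.06, Ighm by 0.95, H2-T23 by 0.91 and Lgals1 by 0.88 on the log2 scale. The difference was -1.14 for Serpina3n, -0.87 for Gm5124, -0.77 for Rbm24, -0.65 for Ccdc6, -0.63 for Crhbp and -0.63 for Lpl.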

How the results depend on the processing

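For FAD hippocampus against cortex the 19 alternatives gave 1589 to 2746 genes higher in hippocampus and 1720 to 2657 higher in cortex, each within 1.5 times the counts reported. With the pool in place of the mouse as replicate block they gave 1685 and 1780, and with region alone and no replicate block 1589 and 1731. In the IgG arm region alone gave 680 genes higher in hippocampus, and without pool 6 the counts were 728 and 799. In the CD38 arm, where each pool holds 1 mouse, the pool gave the counts of the mouse block (1286 and 1289), and region alone gave 629 and 827. The count of 0 between the arms stood in all 16 alternatives. Tests between arms and between genotypes were fitted with the mouse block alone. Genes whose region difference was higher in FAD than in WT mice numbered 66 with the mice of high ribosomal RNA left out, 242 by voom, and 15, 53, 16 and 15 with pools 5, 6, 8 and 9 left out. Those higher in WT mice numbered 13 by DESeq2, 31 with the mice of high ribosomal RNA left out, 233 by voom, and 2, 15, 3, 13 and 3 without pools 5, 6, 8, 10 and 11. The cause was not tested. No gene followed changed sign while called. Of 138 genes followed in the main comparison, 25 gained or lost their call in at least 1 alternative, among them Csf1r in 17, H2-DMa in 12, Thy1 in 11, Mbp in 10 (gained, toward cortex) and H2-Eb1, Pdgfra and C1ql1 in 9 each of 19. Klk6 lost it only without the mouse block. Between genotypes Rbm24 lost its call in 8, Ccdc6 in 6, Crhbp in 5 and Lpl in 4 of 16 alternatives. Cd74 (2.03 to 2.77), Klk6 (1.19 to 1.53) and Endou (1.99 to 2.29) kept theirs in the 15 alternatives with a value, since DESeq2 gave them no adjusted p. A prior count of 0.5 moved the mean log2 CPM difference of Lhx9 from 3.78 to 5.19, and that of Drd5 to 3.21. With no filter on low counts the striatal list median was -2.48 and the dentate one 1.43. At 1270918 to 5101368 counts per well, genes of a few CPM rest on few counts.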
